A study of Mus musculus with 12 samples.

Results

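The FOXO transcription factors and genes known as their targets were followed through amino acid and serum starvation of mouse embryonic fibroblasts (MEFs). The set holds Foxo1, Foxo3, Foxo4, Insr, Irs2, Pik3ip1, Klhl24, Fbxo32, Ccng2 and Bcl6, chosen by symbol with earlier results of these data known. It makes up 10 of the 24062 gene symbols in the table. All 10 passed the filter on low counts that left 12154 genes for testing. The study asked how BRUCE, a giant ubiquitin-conjugating enzyme of the IAP family encoded by Birc6, acts in autophagy, and RNA-Seq counted poly(A) RNA in 12 libraries. Control MEFs expressed shRenilla, a hairpin against a luciferase that mouse cells lack, and knockdown MEFs expressed shBruce#1, a hairpin against Birc6. Both lines carried a retroviral shRNA, and each was grown in full medium (FM) or starved for 2 h in medium without serum and amino acids (Starv). There were 3 libraries in each of the 4 conditions. Each line stands for a single shRNA, so a difference between the lines cannot be told apart from a difference between these cell populations. The labels do not say whether replicates were separate cultures, so p-values measure only the spread between these libraries, which may be technical.

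FOXO factors are forkhead proteins that insulin and growth factors hold in the cytosol: PI3K activates AKT, AKT phosphorylates the factors, and 14-3-3 proteins retain them outside the nucleus. When growth factors are withdrawn the factors enter the nucleus and activate genes of cell cycle arrest, protein breakdown and autophagy. They also activate genes of the insulin pathway itself, among them the receptor Insr and its adaptor Irs2, which is known as feedback.

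Total counts lay between 7717265 and 18510540 per library, lowest in replicate 1 of shBruce Starv and 13200393 or more in the others. The members had raw counts from 27 to 3691 in a library. Birc6, the target of the hairpin, had 4682, 3273 and 5061 normalised read counts in shRenilla FM against 1207, 1265 and 1390.4 in shBruce FM, and 4759, 4712 and 2787 in shRenilla Starv against 1175, 703 and 1226 in shBruce Starv. Its log2 difference was -1.75 in FM (adjusted p = 0.0627, edgeR) and -1.98 in Starv (adjusted p = 0.0186), with no overlap between the lines in either medium. The summed level of 10 fibroblast markers was between 130241 and 198531 normalised counts in every library, although Thy1 had at most 3 raw counts in a library. The 5 epithelial markers summed to at most 16.1, the 5 skeletal muscle markers to at most 38.4, the 5 endothelial markers to at most 64.0 and the 5 immune markers to at most 22.2. The 5 neuronal markers summed to between 170 and 438, most of it Tubb3, which ran from 161 to 399.7.

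Starvation raised 7 of the 10 members in shRenilla MEFs and 6 of the 10 in shBruce MEFs, and lowered none in either line. Of all 12154 genes tested, 9.69% were called higher and 7.27% lower in shRenilla MEFs, and 12.4% higher and 10.6% lower in shBruce MEFs. The members were chosen with earlier results of these data known, so their excess over these shares is no test of FOXO targets. Klhl24, Fbxo32, Ccng2 and Pik3ip1 rose between 5.13-fold and 9.49-fold in both lines, Irs2 and Bcl6 rose less, and Insr passed the test in shRenilla MEFs and not in shBruce MEFs, a difference that itself did not pass. The 3 FOXO factors did not pass the test in either line. In shRenilla MEFs the median log2 fold change of the 10 members was 1.23, beside -0.01 over all genes tested, and in shBruce MEFs it was 1.14 beside 0.02. Beside these rises, the summed fibroblast markers went from between 154804 and 159004 normalised counts to between 130241 and 140100 in shRenilla MEFs and from between 167419 and 198531 to between 131741 and 161557 in shBruce MEFs. The summed neuronal markers went from between 170 and 221 to between 291 and 339 in shRenilla MEFs and from between 261 and 311 to between 395 and 438 in shBruce MEFs. Tubb3, with a log2 fold change of 0.73 ± 0.14 and 0.49 ± 0.14, was the 1 marker called in either line. In shBruce MEFs the summed immune markers went from between 4.96 and 13.8 to between 18.1 and 22.2 and the summed skeletal muscle markers from between 4.96 and 10.6 to between 14.9 and 38.4. None of these sums overlapped between the media, and their part in the rises was not tested. In these bulk samples, fewer cells that express a gene and less RNA per cell cannot be told apart.

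**Figure D1:**
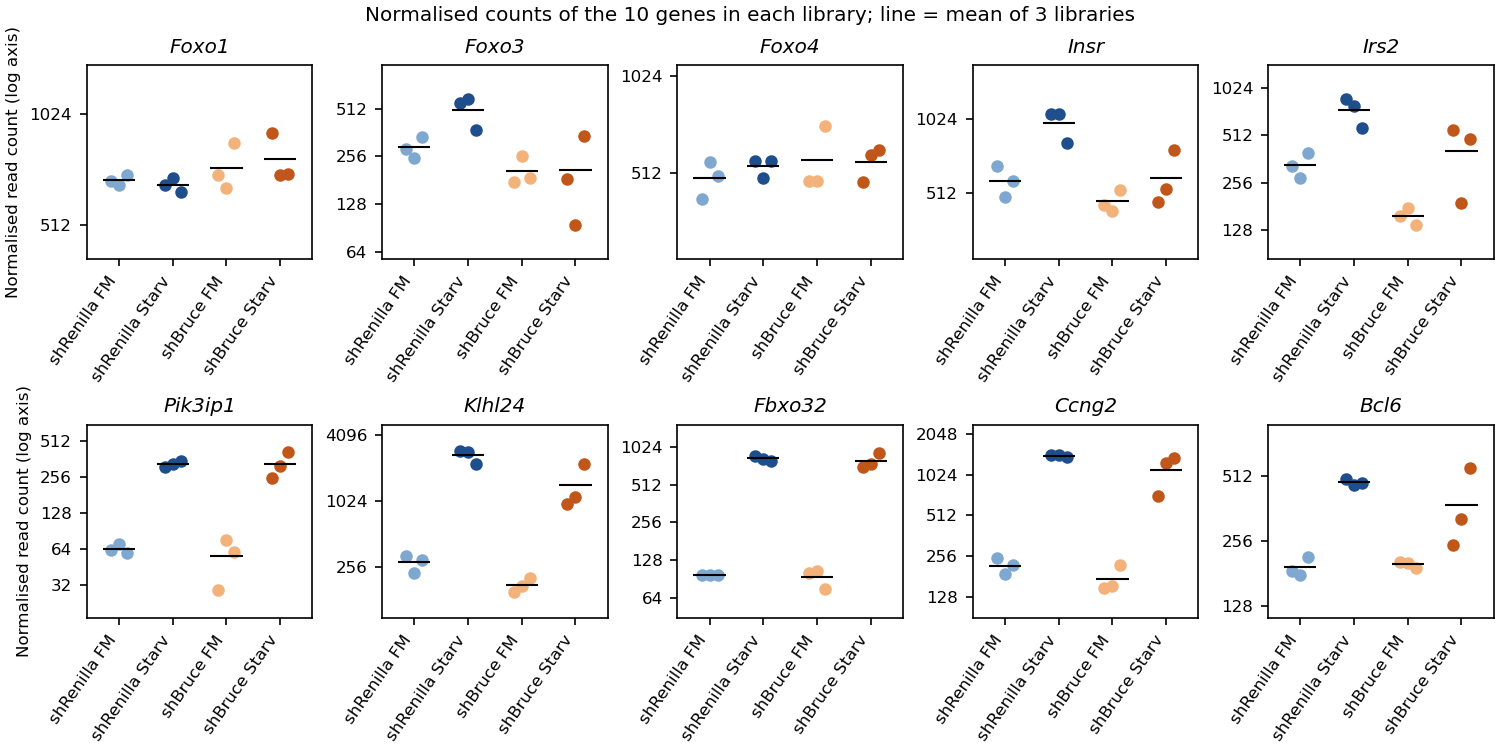
Normalised read counts (log axis, a scale per panel) of the 10 genes in the 3 libraries of each condition, with a line at the mean. Klhl24, Fbxo32, Ccng2 and Pik3ip1 sit well above their FM values in all 6 starved libraries, while the FM and Starv points of Foxo1 and Foxo4 overlap in both lines.

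Promoter windows were at hand for 6 members, Foxo1, Foxo3, Irs2, Pik3ip1, Ccng2 and Bcl6. They cover 250 bases before and 50 after a RefSeq start (GRCm38.p6), and Foxo4, Insr, Klhl24 and Fbxo32 had none in the table used. The 250 bases before the start were searched on both strands for the forkhead consensus TGTTTAC, for its core TGTTT, which lies within the consensus, and for the E-box CACGTG, the palindrome that bHLH factors bind. The consensus was in none of the 6 members and in 3.17% of 32851 windows of all genes. The core was in 3 members, Foxo1, Irs2 and Ccng2, and in 46.4% of all windows. The E-box was in 2 members, Irs2 and Bcl6, and in 6.02% of all windows. The 6 members had 7 windows, because Bcl6 had 2, and its other window held none of these motifs. The stretches with these letters are shown because the promoters of Irs2, Ccng2 and Bcl6 belong to genes that rose together and that of Foxo1 to a gene whose level overlapped across media. Capitals mark the matches, and each stretch runs 5′ to 3′ on the strand of its gene.
Irs2, chr8:11008930-11009009, minus strand: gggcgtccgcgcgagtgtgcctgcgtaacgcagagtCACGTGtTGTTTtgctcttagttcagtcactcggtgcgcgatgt
Bcl6, chr16:23988853-23988932, minus strand: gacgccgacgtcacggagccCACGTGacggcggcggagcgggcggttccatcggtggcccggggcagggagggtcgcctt
Foxo1, chr3:52268107-52268186, plus strand: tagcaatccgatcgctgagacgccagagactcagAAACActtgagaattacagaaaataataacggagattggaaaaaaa
Ccng2, chr5:93267543-93267572, plus strand: gggcgtcgcagactcaAAACAaAAACAagg
In the Irs2 stretch the E-box began 44 bases before the start and the core 37 bases before it, with a base between them. The RefSeq start of Irs2 lies upstream of its GENCODE start. That of Ccng2 lies inside the span of its GENCODE gene, which begins at 93267257, so the Ccng2 stretch lies within that span. Whether the stretch is exonic was not checked. In Ccng2 the reverse complement of the core, AAACA, began 14 and 8 bases before the start. In Foxo1 it began 196 bases before the start, and the E-box of Bcl6 began 60 bases before its start. These matches describe letters in a window and no binding was measured.

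None of the 3 FOXO factors of the set passed the test for starvation in either line, although Foxo3 had a log2 fold change of 0.79 in shRenilla MEFs (1.73-fold, interval 0.06 to 1.52), about that of Insr. Foxo1, on chromosome 3 at 52268336 to 52353221 of GRCm38, is the family member best known for its control of metabolic genes. In shRenilla MEFs it had 675, 656 and 699.8 normalised counts in FM and 655, 685 and 630.2 in Starv. In shBruce MEFs it had 698, 643 and 858 in FM and 912, 701 and 704 in Starv. The media overlapped in both lines, with a log2 fold change of Starv over FM of -0.04 ± 0.14 (SE; 95% interval -0.34 to 0.26) in shRenilla MEFs and of 0.07 ± 0.14 (interval -0.23 to 0.37) in shBruce MEFs.

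Foxo4, on chromosome X at 101254528 to 101260873, had 426, 552 and 500.0 normalised counts in shRenilla FM and 557, 494 and 557 in shRenilla Starv. The shBruce libraries had 484, 482 and 717 in FM and 480.4, 581 and 601 in Starv. These ranges overlapped too, and the log2 fold change was 0.12 ± 0.17 (interval -0.24 to 0.49) in shRenilla MEFs and -0.01 ± 0.17 (interval -0.38 to 0.35) in shBruce MEFs. In reads per kilobase of the longest transcript, scaled to library size (RPKM), Foxo4 was the most abundant FOXO factor in every condition, at 10.7 ± 1.37 (SD, n = 3) in shRenilla FM against 5.35 ± 0.172 for Foxo1 and 2.93 ± 0.447 for Foxo3. In shBruce Starv the corresponding levels were 12.0 ± 1.40, 6.11 ± 0.958 and 2.09 ± 1.27 RPKM. This order depends on the transcript length used, 3162 bases for Foxo4 and 8665 for Foxo1. In normalised counts the mean of Foxo1 was above that of Foxo4 in every condition, at 677 against 493 in shRenilla FM and 772 against 554 in shBruce Starv.

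Foxo3, on chromosome 10 at 42181841 to 42276755, codes for the factor best known for its role in atrophy and stem cell quiescence. It had 286, 252 and 341 normalised counts in shRenilla FM and 558, 586 and 375 in shRenilla Starv. With the BRUCE hairpin the values were 177, 256 and 186 in FM and 186, 94.96 and 346 in Starv. The media did not overlap in shRenilla MEFs, with a log2 fold change of 0.79 ± 0.34 (adjusted p = 0.128), and they overlapped in shBruce MEFs, with 0.03 ± 0.35 (adjusted p = 0.965). The shRenilla value passed the threshold in 3 of 22 alternatives, the fit of only the libraries compared (adjusted p = 0.00423) and the fits without replicate 2 or without replicate 3 of shBruce Starv. In shBruce MEFs the value ran from -0.62 without replicate 3 of shBruce Starv to 0.39 without its replicate 2, so its direction rests on single libraries. Foxo6, the FOXO gene outside the set, was near the detection limit at 10.5 to 35.3 normalised counts. It rose in shBruce MEFs by 1.47 ± 0.29 on the log2 scale (adjusted p = 0.0033), and in shRenilla MEFs its value was 0.85 ± 0.29 (adjusted p = 0.0603).

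The members upstream of the factors belong to insulin signalling. Insr, the insulin receptor, lies on chromosome 8 at 3122061 to 3279617 and overlaps an antisense gene. It had 657, 494 and 571 normalised counts in shRenilla FM and 1069, 1076 and 819.6 in shRenilla Starv. In shBruce MEFs it had 458, 433 and 528 in FM and 468, 532 and 763 in Starv. The media were apart in shRenilla MEFs and overlapped in shBruce MEFs. The log2 fold change was 0.78 ± 0.19 (1.72-fold, adjusted p = 0.0112) in shRenilla MEFs and 0.32 ± 0.19 (interval -0.08 to 0.73, adjusted p = 0.235) in shBruce MEFs. The first call was lost without replicate 2 of shRenilla FM and without replicate 1 or 2 of shRenilla Starv, with adjusted p up to 0.064 over all alternatives.

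Irs2, the adaptor that passes the insulin receptor's signal to PI3K, lies on chromosome 8 at 10984681 to 11008458. It had 324, 273 and 395 normalised counts in shRenilla FM and 865, 781 and 572 in shRenilla Starv. The shBruce libraries had 157, 177 and 138 in FM and 549, 191 and 484 in Starv. Every starved library lay above every FM library of its line, although replicate 2 of shBruce Starv did so by little. The log2 fold change was 1.16 ± 0.30 (2.24-fold, adjusted p = 0.018) in shRenilla MEFs and 1.36 ± 0.32 (2.57-fold, adjusted p = 0.00758) in shBruce MEFs. The shRenilla call was lost without replicate 1 or 2 of FM and without replicate 1 or 2 of Starv (adjusted p up to 0.0832), and the shBruce call held in all 22 alternatives. Irs1, the other main adaptor of the receptor, did not pass the test in shRenilla MEFs (0.10 ± 0.14, adjusted p = 0.671) or in shBruce MEFs (-0.23 ± 0.14, adjusted p = 0.269). Igf1r, the receptor for insulin-like growth factor, had -0.13 ± 0.17 (adjusted p = 0.652) and 0.17 ± 0.18 (adjusted p = 0.518).

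Pik3ip1, a membrane protein that inhibits PI3K, lies on chromosome 11 at 3330401 to 3342971. It had 62.8, 70.7 and 59.1 normalised counts in shRenilla FM and 311, 331 and 347 in shRenilla Starv. With the BRUCE hairpin the values were 28.7, 76.4 and 60.5 in FM and 248, 317 and 409.6 in Starv. All starved libraries were far above all FM libraries. Starvation changed it by 2.36 ± 0.27 on the log2 scale (5.13-fold, adjusted p = 7.41e-05) in shRenilla MEFs, the 44th largest rise of 12154 genes, and 2.56 ± 0.28 (5.91-fold, adjusted p = 4.46e-05) in shBruce MEFs.

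Klhl24 and Fbxo32 code for substrate receptors of cullin ubiquitin ligases. Klhl24, on chromosome 16 at 20097542 to 20129221, had 325, 225 and 301 normalised counts in shRenilla FM and 2945, 2895 and 2249 in shRenilla Starv. In shBruce MEFs it had 153, 173 and 204 in FM and 973, 1109.7 and 2227 in Starv. The media were far apart in both lines, and replicate 3 of shBruce Starv stood at the level of the lowest shRenilla Starv library. The log2 fold change was 3.25 ± 0.29 (9.49-fold, adjusted p = 9.5e-06) in shRenilla MEFs, the 9th largest rise of all genes tested, and 3.03 ± 0.29 (8.15-fold, adjusted p = 1.59e-05) in shBruce MEFs. In RPKM it went from 2.38 ± 0.435 to 22.6 ± 3.26 in shRenilla MEFs, from the 8th to the first place among the 10 members, although its level in Starv and that of Ccng2 differed by less than their summed SDs.

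Fbxo32, also known as atrogin-1 and a marker of muscle atrophy, lies on chromosome 15 at 58175879 to 58214932 and overlaps an antisense gene. It had 96.3, 97.1 and 97.7 normalised counts in shRenilla FM and 873, 825 and 789 in shRenilla Starv. The shBruce libraries had 99.8, 105 and 74.4 in FM and 709, 744 and 909 in Starv. The media were far apart in both lines, and its standard error was the smallest among the strongly rising members. The change on the log2 scale was 3.09 ± 0.15 (8.53-fold, adjusted p = 1e-07) in shRenilla MEFs and 3.08 ± 0.16 (8.48-fold, adjusted p = 9.78e-08) in shBruce MEFs. By p it ranked 4th of all genes in the first comparison and 5th in the second. Trim63, the other classical atrophy ligase, had 0 to 3 raw counts in every library and was not tested, and the muscle regulators Myod1 and Myog were at 0 in every library of the other 3 conditions than shBruce Starv.

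Ccng2 and Bcl6 act on the cell cycle and on transcription. Ccng2 codes for cyclin G2, an atypical cyclin linked to cell cycle arrest, on chromosome 5 at 93267257 to 93276231. It had 246, 188 and 219.5 normalised counts in shRenilla FM and 1440.4, 1429.6 and 1379 in shRenilla Starv. With the BRUCE hairpin the values were 149, 154 and 219 in FM and 709, 1246 and 1358 in Starv. The shallow library, replicate 1 of shBruce Starv, was the lowest of the 6 starved libraries. The log2 fold change was 2.70 ± 0.23 (6.50-fold, adjusted p = 6.58e-06) in shRenilla MEFs and 2.67 ± 0.23 (6.37-fold, adjusted p = 7.62e-06) in shBruce MEFs. Ccng1, which codes for cyclin G1, is known as a p53 target and is also counted below among other FOXO targets. It had a log2 fold change of -0.04 ± 0.14 (adjusted p = 0.855) in shRenilla MEFs and of -0.31 ± 0.14 (adjusted p = 0.128) in shBruce MEFs.

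Bcl6, a transcriptional repressor of the zinc finger family, lies on chromosome 16 at 23965052 to 23988852. It had 187, 179 and 217 normalised counts in shRenilla FM and 494, 463 and 475 in shRenilla Starv. In shBruce MEFs it had 206, 202 and 191 in FM and 246, 323 and 555 in Starv. The starved replicates were tight in shRenilla MEFs and spread more than 2-fold in shBruce MEFs. Its log2 fold change was 1.30 ± 0.23 (2.46-fold, adjusted p = 0.00173) in shRenilla MEFs and 0.92 ± 0.23 (1.89-fold, adjusted p = 0.0112) in shBruce MEFs. In shBruce MEFs the call was lost when only the libraries compared were fitted (adjusted p = 0.0789).

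**Figure D2:**
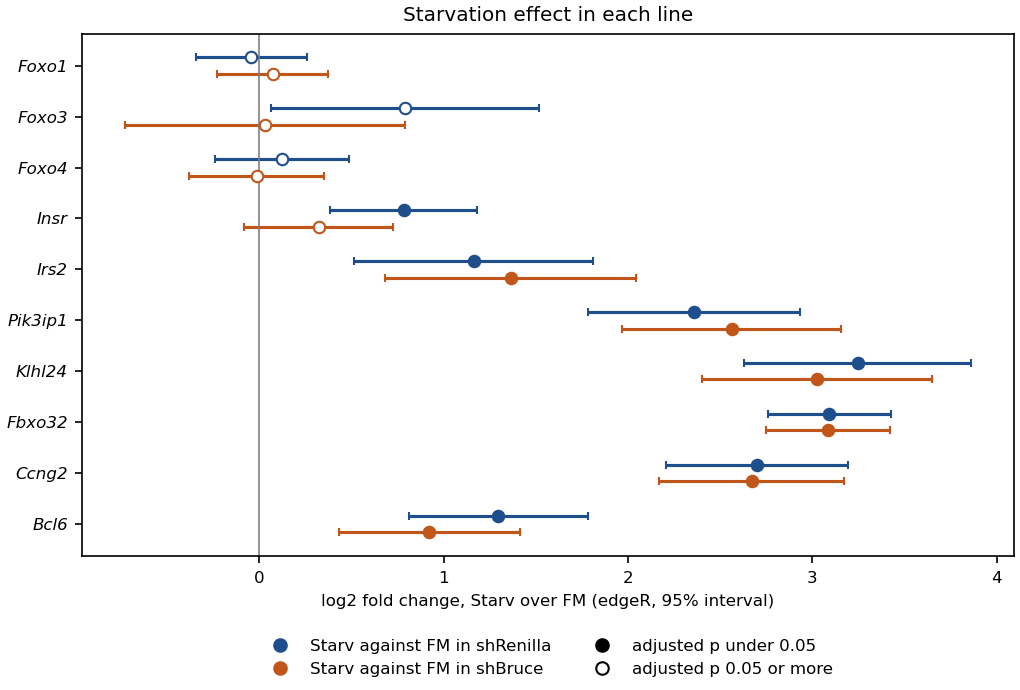
Log2 fold change of Starv over FM (x axis) for each gene in shRenilla MEFs (blue) and shBruce MEFs (orange), with 95% intervals from edgeR; filled points passed the test. The intervals of Klhl24, Fbxo32, Ccng2 and Pik3ip1 lie above 1.7 in both lines, and those of Foxo1 and Foxo4 include 0 in both.

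Where a member's FM and Starv libraries did not overlap, the exact two-sided permutation test gave p = 0.1, the smallest that 3 libraries against 3 allow. Klhl24, Fbxo32, Ccng2 and Pik3ip1 kept their calls in both lines in all 22 alternatives, including those that left out each library in turn. Under upper-quartile normalization the median of all genes shifted from 0.02 to 0.11 in shBruce MEFs, and the calls over all genes moved from 1178 higher and 883 lower to 1588 and 641 in shRenilla MEFs and from 1506 and 1284 to 1991 and 933 in shBruce MEFs. The same 7 and 6 members were called under that scaling.

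The size of the starvation effect was compared between the lines with the interaction of line and medium, the difference of the log2 fold change in shBruce MEFs from that in shRenilla MEFs. None of the 10 members passed the edgeR test, where 0% of all genes tested did and 474 of 12154 genes had an unadjusted p under 0.05, none of them a member. DESeq2, limma-voom and the other alternatives called no member either. The difference was -0.01 (interval -0.47 to 0.45) for Fbxo32, -0.03 (interval -0.70 to 0.64) for Ccng2, -0.22 (interval -1.04 to 0.60) for Klhl24 and 0.20 (interval -0.61 to 1.01) for Pik3ip1. For Insr it was -0.46 (interval -1.03 to 0.11, adjusted p = 0.806), the member with the smallest unadjusted p. For Foxo3 it was -0.76 (interval -1.81 to 0.29) and for Bcl6 -0.37 (interval -1.06 to 0.31). These intervals leave room for a difference of more than 1.5-fold in Klhl24, Ccng2 and Pik3ip1, so the lines cannot be said to respond alike.

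In full medium none of the 10 members passed the test between the lines. Of all genes tested 0% did, and Birc6 did not, so the lack of a call does not show equal levels. The 2 members Irs2 and Klhl24 had an unadjusted p under 0.05, as had 1750 of the 12154 genes. The share of all genes without overlap between the lines was not counted in either medium, so the lack of overlap in single members describes those members only. Irs2 was at 157, 177 and 138 normalised counts in shBruce FM against 324, 273 and 395 in shRenilla FM, without overlap, with a log2 difference of -1.07 ± 0.31 (2.10-fold lower, interval -1.75 to -0.40, adjusted p = 0.266). Klhl24 was at 153, 173 and 204 against 325, 225 and 301, without overlap, with -0.68 ± 0.28 (1.61-fold lower, interval -1.29 to -0.08, adjusted p = 0.316). Both passed the test when only the FM libraries were fitted (adjusted p = 0.0288 and 0.049), where 3.22% of 11680 genes were called lower in shBruce MEFs. Once length and GC trends of each library were taken out, the difference was -1.02 for Irs2 and -0.30 for Klhl24. For the other 8 members the difference lay between -0.50 for Foxo3 (interval -1.25 to 0.24) and 0.19 for Foxo4 (interval -0.18 to 0.55).

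In starved cells, 3 of the 10 members were lower in shBruce than in shRenilla MEFs and none was higher, where 11.2% of all genes tested were called lower and 12.8% higher. Foxo3 was at 186, 94.96 and 346 normalised counts in shBruce Starv against 558, 586 and 375 in shRenilla Starv. Insr was at 468, 532 and 763 against 1069, 1076 and 819.6. Klhl24 was at 973, 1109.7 and 2227 against 2945, 2895 and 2249. In each of these genes the lines did not overlap, but replicate 3 of shBruce Starv came close to replicate 3 of shRenilla Starv.

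The log2 difference was -1.26 ± 0.35 for Foxo3 (2.4-fold lower, adjusted p = 0.0282), -0.74 ± 0.19 for Insr (1.67-fold lower, adjusted p = 0.0241) and -0.90 ± 0.26 for Klhl24 (1.87-fold lower, adjusted p = 0.0306). Irs2, at 549, 191 and 484 against 865, 781 and 572, just missed the threshold with -0.87 ± 0.30 (adjusted p = 0.0513). It passed in 6 of 22 alternatives, among them limma-voom (adjusted p = 0.0364) and the DESeq2 Wald test (adjusted p = 0.0284). Foxo3 passed in 16 of 22, and Insr and Klhl24 in 15 each. With length and GC trends removed Irs2 had -0.78 (adjusted p = 0.0572). Fbxo32 had a log2 difference of -0.07 (interval -0.37 to 0.23), Pik3ip1 of -0.01 (interval -0.54 to 0.52) and Foxo4 of 0.05 (interval -0.31 to 0.42). Ccng2 and Bcl6 had -0.35 (interval -0.81 to 0.10) and -0.33 (interval -0.81 to 0.14), and Foxo1 had 0.23 (interval -0.07 to 0.53). The libraries of Foxo1 and Ccng2 did not overlap between the lines, although neither gene passed the test.

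**Figure D3:**
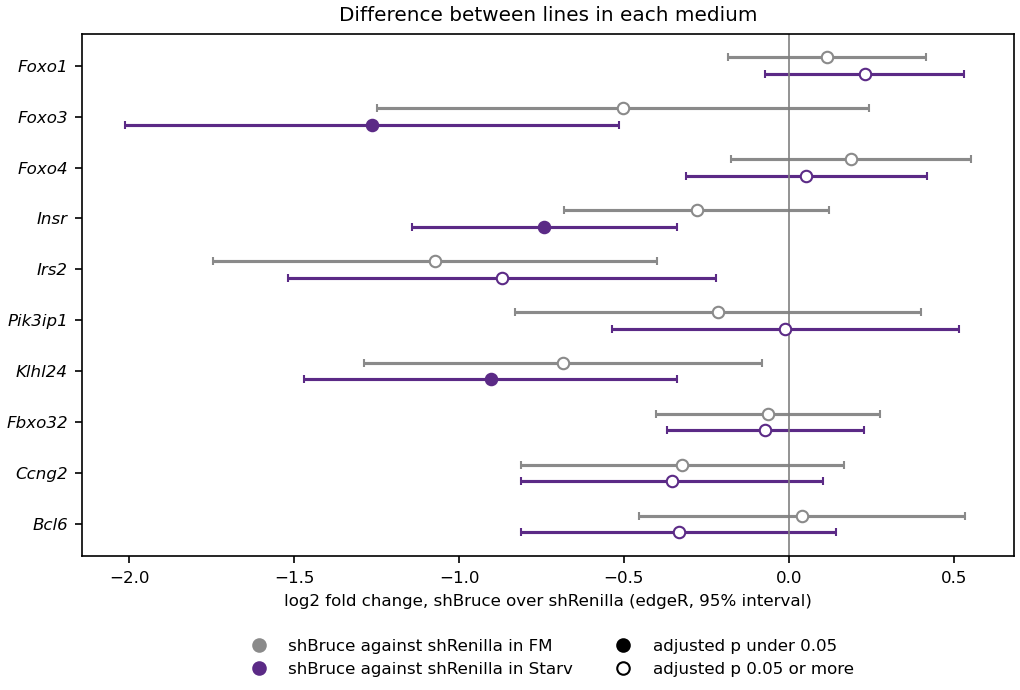
Log2 fold change of shBruce over shRenilla MEFs (x axis) for each gene in FM (grey) and in Starv (purple), with 95% intervals from edgeR; filled points passed the test. Foxo3, Insr and Klhl24 are filled in Starv, no gene is filled in FM, and the FM and Starv intervals of each gene overlap.

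These 3 calls rested on single libraries and on the processing. All 3 were lost without replicate 1 or 2 of shRenilla Starv, without replicate 1 or 2 of shBruce Starv, and when only the starved libraries were fitted (adjusted p of 0.117, 0.117 and 0.118 for Foxo3, Insr and Klhl24), whereas 5 members were called lower without replicate 3 of shBruce Starv, Bcl6 and Irs2 being the others, where 24.5% of all genes tested were lower. Over all genes, 0 were called without replicate 1 or 2 of shRenilla Starv or when only the starved libraries were fitted, and in the last of these the log2 differences were -1.28 for Foxo3, -0.75 for Insr and -0.91 for Klhl24. With length and GC trends removed the differences fell to -0.26 for Insr (adjusted p = 0.214) and -0.38 for Klhl24 (adjusted p = 0.161), Foxo3 kept -1.06 (adjusted p = 0.0413) and Foxo1 was called higher at 0.66 (adjusted p = 0.0328), where 8.27% of all genes tested were called in either direction. The trend itself, fitted over all genes, amounted to -0.57 for Klhl24, -0.49 for Insr, -0.43 for Foxo1 and -0.24 for Foxo3. The part of length, GC content or the single libraries in the differences as first given was not tested further. In the same libraries the 5 neuronal markers summed to 395 to 438 normalised counts in shBruce Starv against 291 to 339 in shRenilla Starv, and the 5 skeletal muscle markers to 14.9 to 38.4 against 0.865 to 8.57. The summed immune markers were at 18.1 to 22.2 normalised counts in shBruce Starv against 5.59 to 7.62 in shRenilla Starv, with Cd3e and Adgre1 (listed as Emr1) at 0 in both and with Ptprc and the fibroblast marker S100a4 the only called genes of the marker lists. The part of these markers in the result was not tested.

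**Figure D4:**
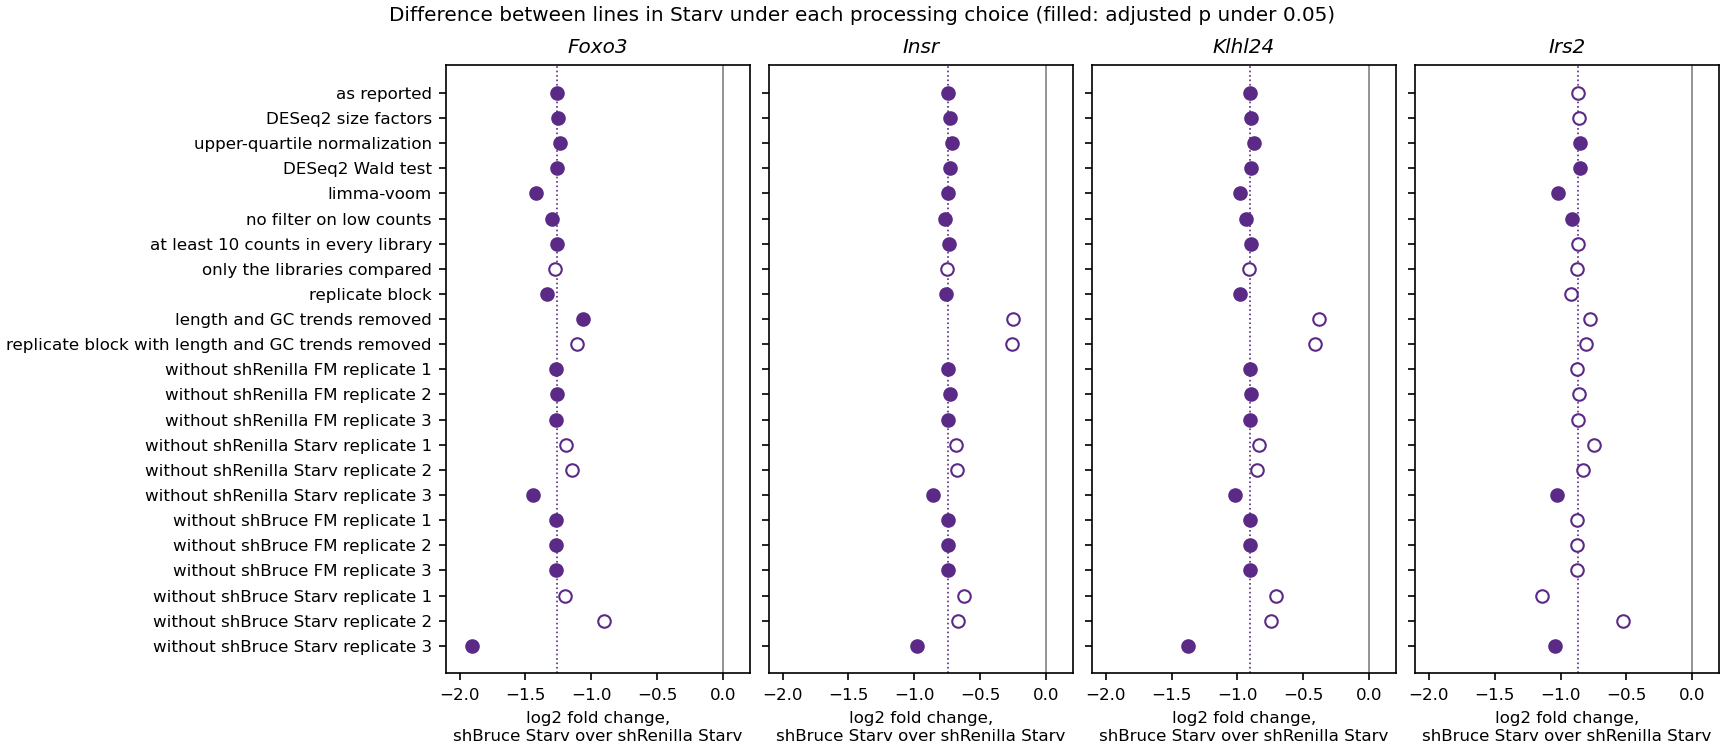
Log2 fold change of shBruce Starv over shRenilla Starv (x axis) for Foxo3, Insr, Klhl24 and Irs2 as reported and under each of 22 alternatives (rows), filled where the adjusted p was under 0.05 and with a dotted line at the reported value. All values are below 0, Insr and Klhl24 move to -0.26 and -0.38 with length and GC trends removed, and the calls come and go as single starved libraries are left out.

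Some libraries held the highest or lowest value of their condition for many members. The same was not counted over all genes, so these orders describe the members only. Some gaps were small, as for Ccng2 at 1440.4, 1429.6 and 1379 normalised counts in shRenilla Starv. Replicate 3 of shBruce Starv held the highest value of its condition for 8 of the 10 members, all but Foxo1 and Irs2. Replicate 3 of shRenilla Starv held the lowest value of its condition for 7 members, Foxo1, Foxo3, Insr, Irs2, Klhl24, Fbxo32 and Ccng2, and also the lowest Birc6 level of the shRenilla libraries. Replicate 1 of shBruce Starv, the shallowest library, was the lowest of its condition for 7 members.

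Per length, the order of the members turned over with starvation. In shRenilla FM Foxo4 led with 10.7 RPKM, followed by Foxo1 with 5.35 and Insr with 4.20, and Fbxo32 was last with 0.953 ± 0.00673. From Insr down to Klhl24, neighbours in that order differed by less than their summed SDs. In shRenilla Starv Klhl24 at 22.6 ± 3.26 and Ccng2 at 21.4 ± 0.492 led without being separated by their spread, Foxo4 followed with 11.6 ± 0.786, and Foxo3 was last with 5.06 ± 1.14. In shBruce Starv Ccng2 at 16.7 ± 5.24, Klhl24 at 12.0 ± 5.77 and Foxo4 at 12.0 ± 1.40 led, and no neighbours in the order were separated by more than their summed SDs.

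Across the 12 libraries the strongly rising members varied together. Pearson's r of log2 CPM (counts scaled to library size) was 0.983 between Klhl24 and Ccng2. It was 0.972 between Fbxo32 and Ccng2 and 0.966 between Pik3ip1 and Ccng2. Among the members Foxo3 was most like Insr (0.793) and Irs2 (0.765). Insr and Irs2 had higher values with Klhl24 (0.819 and 0.823) than with Foxo3. With Fbxo32, Pik3ip1, Ccng2 and Klhl24, Foxo3 had values from 0.265 to 0.483. The 12 points share the contrast of media, which by itself makes such values high, and no p is given. Among genes outside the set, the most like Ccng2 was Hbp1 (0.995), most like Fbxo32 was Atg14 (0.995), most like Klhl24 was Ctns (0.992) and most like Pik3ip1 was again Hbp1 (0.976). The gene most like Bcl6 was Pask (0.986), most like Irs2 was Stil (0.986), most like Insr was Mastl (0.980) and most like Foxo3 was Ern1 (0.969). Foxo1 and Foxo4 had looser partners, Tmem38a (0.946) and Kctd15 (0.881).

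Other genes known as FOXO targets moved in part with the members. Of 40 such genes 33 were tested. In shRenilla MEFs 10 rose and 0 fell, where 9.69% of all genes rose and 7.27% fell. In shBruce MEFs 10 rose and 1, Cited2, fell, where 12.4% and 10.6% of all genes did. Of the rising genes, 9 rose in both lines. The list was chosen with earlier results of these data known, so its excess over these shares is no test. The list's median log2 fold change was 0.46 in shRenilla MEFs and 0.30 in shBruce MEFs, beside -0.01 and 0.02 over all genes. Gadd45a, a growth arrest and DNA damage gene, rose by 2.60 ± 0.13 in shRenilla MEFs (adjusted p = 1.03e-07) and by 2.87 ± 0.14 in shBruce MEFs (adjusted p = 6.83e-08) on the log2 scale. Atg14, a subunit of the autophagic PI3K complex, rose by 1.65 ± 0.12 and 1.69 ± 0.12, and Bbc3, which codes for the cell death protein PUMA, rose by 1.34 ± 0.15 and 1.51 ± 0.15. Klf15, a factor of gluconeogenic and amino acid metabolism, went from 4.90, 6.60 and 7.17 to 53.5, 38.9 and 60.9 normalised counts in shRenilla MEFs (adjusted p = 0.000608). Map1lc3b, which codes for LC3B, rose by 0.71 ± 0.16 in shRenilla MEFs and by 1.25 ± 0.16 in shBruce MEFs. In the interaction of line and medium 0 of the 33 targets passed the test, Map1lc3b included, where 0% of all genes did.

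By function, 4 of 6 autophagy targets, 3 of 8 cell cycle and DNA damage targets, 2 of 3 metabolic targets and 1 of 3 cell death targets rose in shRenilla MEFs. Over all genes 9.69% rose and 7.27% fell in that line, and 12.4% rose and 10.6% fell in shBruce MEFs. Groups of so few genes cannot be set apart from these shares. None of 7 antioxidant targets, of 4 growth factor signalling and transcription targets or of 2 atrophy ligases passed the test in shRenilla MEFs. In shBruce MEFs 3 autophagy targets rose, the counts for the cell cycle, metabolic and cell death targets were again 3, 2 and 1, and no atrophy ligase passed. There the antioxidant target Sepp1, which codes for selenoprotein P, rose by 0.96 ± 0.22 on the log2 scale (adjusted p = 0.00766) and the transcription target Cited2 fell by 0.39 ± 0.12 (adjusted p = 0.0294). Of 2 D-type cyclins known to be repressed by FOXO factors, Ccnd1 fell by 0.93 ± 0.22 on the log2 scale in shRenilla MEFs (adjusted p = 0.0109) and fell by 0.73 ± 0.22 in shBruce MEFs (adjusted p = 0.0285). In shBruce Starv its libraries spread over 5147, 3728 and 2194 normalised counts, against 6511, 5894 and 5894 in FM. The shBruce call was lost when only the libraries compared were fitted and without replicate 1 or 2 of shBruce FM or replicate 2 of shBruce Starv. Ccnd2, the other of the 2, had 0.37 ± 0.26 (adjusted p = 0.363) in shRenilla MEFs and 0.30 ± 0.26 (adjusted p = 0.423) in shBruce MEFs, and passed as higher in shRenilla MEFs when only the libraries compared were fitted.

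In the PI3K and AKT pathway that leads to the factors, genes were called in both directions. Of 34 genes tested, 4 rose and 5 fell in shRenilla MEFs, where 9.69% of all genes rose and 7.27% fell. In shBruce MEFs 4 rose and 6 fell, where 12.4% and 10.6% of all genes did, with a median log2 fold change of 0.00 and -0.22, and 3 rising and 5 falling genes were shared. Sgk1, a kinase that phosphorylates FOXO factors as AKT does, fell by 1.20 ± 0.17 and fell by 1.54 ± 0.17 in shRenilla and shBruce MEFs (adjusted p = 0.000461 and 6.94e-05). Akt1 fell by 0.48 ± 0.11 and fell by 0.71 ± 0.11, the phosphatase Ptpn1, which acts on the insulin receptor, fell by 0.62 ± 0.12 and fell by 0.49 ± 0.12, and the lipid phosphatase Inppl1 fell by 0.52 ± 0.12 and fell by 0.69 ± 0.12. Gab1, an adaptor of receptor tyrosine kinases, rose by 0.87 ± 0.13 and 0.83 ± 0.13, and Pik3r3, a regulatory subunit of PI3K, rose by 0.65 ± 0.14 and 0.60 ± 0.14.

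**Figure D5:**
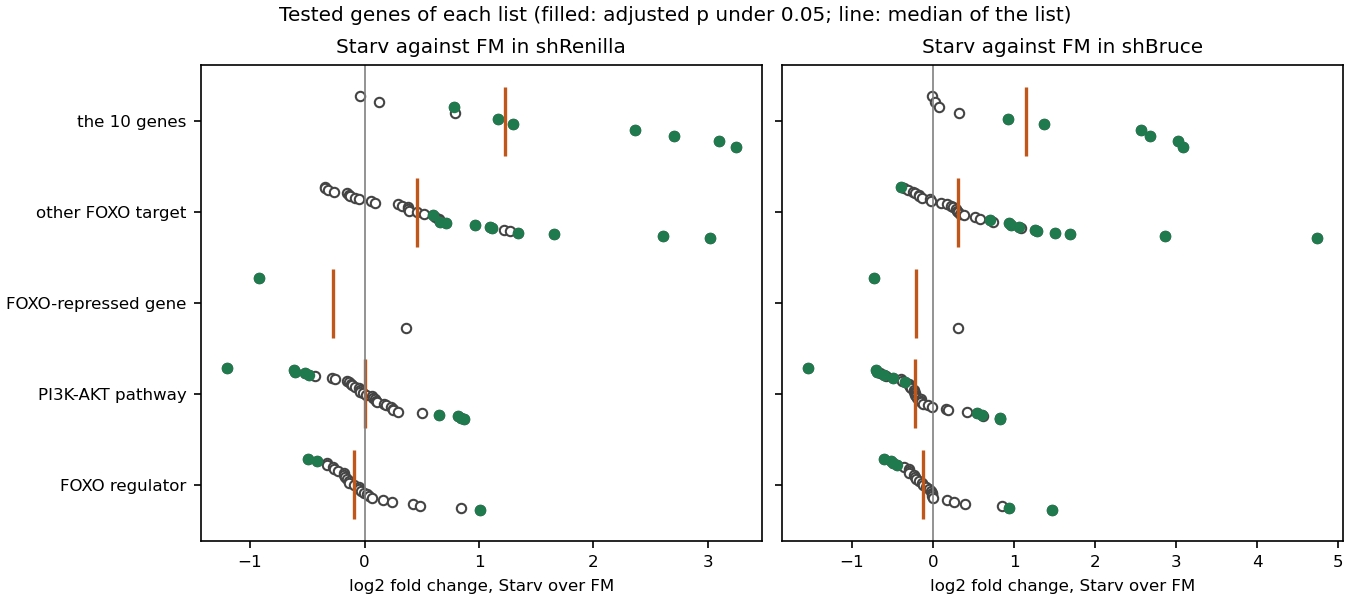
Log2 fold change of Starv over FM (x axis) of each tested gene in the 10 genes and in 4 lists of related genes, in shRenilla MEFs (left) and shBruce MEFs (right); filled points passed the test and a vertical line marks each list's median. The median of the 10 genes is 1.23 and 1.14, that of other FOXO targets 0.46 and 0.30, and those of the PI3K-AKT pathway and of FOXO regulators lie between -0.22 and 0.00.

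Between the lines in Starv, other FOXO targets were called in both directions, 3 higher and 6 lower of 33 in shBruce MEFs with a median of -0.07, where 12.8% of all genes were higher and 11.2% lower. Rictor, a subunit of mTORC2, the complex that phosphorylates AKT, was lower by a log2 difference of -1.09 ± 0.23 (adjusted p = 0.0225), Ccng1 by -0.60 ± 0.14 and the CDK inhibitor gene Cdkn2d was higher by 0.62 ± 0.14. In the PI3K and AKT pathway 0 of 34 genes were higher and 8 were lower, with a median of -0.31, led by Irs1 at -0.76 ± 0.14, the PI3K catalytic subunit Pik3cb at -0.53 ± 0.10 and the Ras activator Sos1 at -0.84 ± 0.20. These counts changed to 1 higher, Pik3ca, and 1 lower, Gab1, with length and GC trends removed, and to 0 higher and 17 lower without replicate 3 of shBruce Starv, where 22.2% of all genes were higher and 24.5% lower. Of the other FOXO targets, 2 (Igf1r and Sod2) were higher and 4 (Ccng1, Gadd45a, Rictor and Sepp1) lower with the trends removed, and 9 were higher and 11 lower without that replicate. Both lists had 0 calls when only the starved libraries were fitted, without replicate 1 or 2 of shRenilla Starv, without replicate 2 of shBruce Starv, and with the replicate block and trends removed together, fits in which at most 5 genes of the whole table were called higher and at most 10 lower. Without replicate 1 of shBruce Starv, 2 genes of each list were lower, with 1 other FOXO target higher. In that fit 226 of 12254 genes were called higher and 347 lower. With the trends removed, 640 of 12154 genes were called higher and 365 lower. In FM none of these lists held a called gene in the fit as reported. When only the FM libraries were fitted, 4 of 34 PI3K and AKT genes and 2 of 31 other FOXO targets were lower. There 221 of 11680 genes were called higher and 376 lower. In FM 1 other FOXO target was lower by the DESeq2 Wald test, where 48 of 12154 genes were. The fit without replicate 3 of shBruce Starv also called 1 lower, where 20 of 12278 genes were.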

How the data were processed

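RNA was sequenced from 12 libraries of MEFs, 3 in each of 4 conditions, grouped by the titles in the labels. The deposited table holds raw read counts per gene symbol, which the authors made from poly(A) libraries by single-end sequencing, removal of rRNA reads, alignment to mm10 with STAR 2.4.0d and counting with HTSeq 0.5.4p3 (versions from the submitters' processing notes). The annotation and strand setting of the counting are not given in the sources used here, so reads of a gene and of a gene antisense to it cannot be told apart (Foxo1, Insr, Irs2, Pik3ip1, Fbxo32 and Bcl6 overlap other genes). The table had 0 unused columns, and 27 symbols turned into dates (0.296% of counts) and 2 repeated symbols were not named.

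The counts entered edgeR 4.0.16 (R 4.3.3) with TMM scaling, filterByExpr and a mean per condition over all 12 libraries, for the two-sided quasi-likelihood test and Benjamini-Hochberg adjustment over 12154 genes at 0.05. Normalised counts are counts divided by relative effective library size, and RPKM uses the longest GENCODE M21 transcript on GRCm38. The SE was derived from the test, as the absolute log2 fold change divided by the square root of the quasi-likelihood F. Intervals are at 95% and use that SE with a t quantile. The alternatives were DESeq2 1.42.0 size factors and Wald test, upper-quartile scaling, limma-voom (limma 3.58.1), no filter, at least 10 counts in every library, only the libraries compared, the replicate number as a block, removal of each library's length and GC trend (splines, 4 degrees of freedom, 12050 genes), both together, each library left out, and at least 2-fold change. Scripts were tested on simulated counts. Text names every member, Birc6, Foxo6, Igf1r, Irs1, Trim63 and Ccng1, from each list the genes with the smallest p that passed (up to 4 per starvation and 3 per line comparison), and the non-members with the highest r over libraries (of 3 kept per member, the first). Other names stand only where a count is small, and were chosen with values seen. The members and lists were chosen with earlier results of these data known. Python 3.11.15, pandas 2.3.3 and matplotlib 3.10.9 made tables and figures. Total counts ran from 7717265 to 18510540, and precision is given by the SE derived from the test.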

Additional observations from a re-analysis of the deposited data

How the results depend on the processing

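Of 16 values of members called above, 324 of 352 values under the alternatives kept their direction and side of the threshold, 28 fell short of it and 0 changed direction. Of 34 values not called, 53 of 738 changed direction and 13 passed the threshold. Depth was 7717265 counts or more per library, and among the members the lowest raw counts, from 27, were those of Pik3ip1 in FM. The starvation counts of 7 and 6 members stayed between 5 and 8 under all alternatives. The count in FM went from 0 to 2 when only the libraries compared were fitted. The count in Starv went from 3 to 0 in that fit, which has fewer samples, and from 3 to 0 with the replicate block and length and GC trends removed together, and to 1 at a change of at least 2-fold. Leaving out libraries, it ranged from 0 to 5. The cause of the other changes was not tested.

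The replicate numbers share only a number: deviations of the 18 same-numbered pairs of libraries correlated between -0.456 and 0.347, over 0.1 in 5. With the replicate block the same 7, 6 and 3 members were called in the starvation comparisons and in Starv between the lines.

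The following differences, none of them called, changed direction, and are log2 values. For starvation, Foxo1 in shRenilla MEFs had 0.037 with upper-quartile scaling. In shBruce MEFs, Foxo3 had -0.14 with limma-voom, -0.015 without the filter, -0.033 with the replicate block and -0.027 with the block and trends removed, and Foxo4 had 0.075 with upper-quartile scaling, 0.014 with limma-voom and 0.0018 with at least 10 counts. Between lines in FM, Insr had 0.028 and Fbxo32 0.22 with trends removed, and 0.024 and 0.21 with the block as well. Between lines in Starv, Foxo4 had -0.067 and Fbxo32 0.36 with trends removed, and -0.078 and 0.36 with the block as well, and Pik3ip1 had 0.017 with upper-quartile scaling. In the interaction, Fbxo32 had 0.0005 with upper-quartile scaling, 0.0049 with limma-voom, 0.15 with trends removed and 0.14 with the block as well, and Ccng2 had 0.067 and 0.066 in the last 2 of these.

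Leaving out single libraries, the starvation effect in shBruce MEFs ranged from -0.076 to 0.20 for Foxo1, from -0.62 to 0.39 for Foxo3 and from -0.12 to 0.20 for Foxo4. The line difference in FM ranged from -0.015 to 0.20 for Foxo1, from -0.029 to 0.29 for Foxo4, from -0.52 to 0.091 for Pik3ip1, from -0.16 to 0.075 for Fbxo32 and from -0.017 to 0.13 for Bcl6. In Starv it ranged from -0.011 to 0.13 for Foxo4 and from -0.21 to 0.13 for Pik3ip1. The interaction ranged from -0.045 to 0.24 for Foxo1, from -0.24 to 0.079 for Foxo4, from -0.081 to 0.55 for Irs2, from -0.10 to 0.51 for Pik3ip1, from -0.15 to 0.084 for Fbxo32 and from -0.20 to 0.17 for Ccng2.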

Other observations

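The proteins that modify, move or degrade FOXO factors were looked at as a list of 27 genes, all of them tested. In shRenilla MEFs 1 of them rose and 2 fell with starvation, where 9.69% of all genes rose and 7.27% fell, and in shBruce MEFs 2 rose and 4 fell, where 12.4% and 10.6% did. The list's median log2 fold change was -0.09 and -0.12. Sirt1, a deacetylase of FOXO factors, went from 1166, 858 and 1104 to 2062, 2174 and 2069 normalised counts in shRenilla MEFs and from 789, 650.1 and 832 to 991, 1459 and 1899 in shBruce MEFs, without overlap in either line. Its log2 fold change was 1.01 ± 0.20 (adjusted p = 0.00377) and 0.94 ± 0.20 (adjusted p = 0.00478). The 14-3-3 genes Ywhag and Ywhah, whose proteins hold phosphorylated FOXO factors in the cytosol, fell by 0.50 ± 0.09 and fell by 0.42 ± 0.11 in shRenilla MEFs, and fell by 0.52 ± 0.09 and fell by 0.61 ± 0.11 in shBruce MEFs. The other 14-3-3 genes of the list, Ywhab, Ywhae, Ywhaq and Ywhaz, passed the test in neither line. Foxo6 rose in shBruce MEFs. None of 8 kinases of the list passed the test in either line. Of 4 ubiquitin genes, none passed in shRenilla MEFs and 1, Skp2, which codes for a substrate receptor of a ubiquitin ligase, fell by 0.50 ± 0.12 in shBruce MEFs (adjusted p = 0.00978). The methyltransferase gene Setd7 fell there too.

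Between the lines in Starv, 1 gene of that list was higher and 4 were lower in shBruce MEFs, where 12.8% and 11.2% of all genes were. Prkaa2, which codes for a catalytic subunit of AMPK, was at 46.4, 46.9 and 67.8 normalised counts against 123, 124 and 86.6, with a log2 difference of -1.03 ± 0.21 (adjusted p = 0.0225). The methyltransferase gene Setd7 was lower by -0.62 ± 0.14, and the ubiquitin ligase gene Stub1 was higher by 0.71 ± 0.19. With length and GC trends removed these differences were -0.47 (adjusted p = 0.0589), -0.20 (adjusted p = 0.168) and 0.20 (adjusted p = 0.189). In that fit 0 genes of the list were higher and 1, Ywhah, was lower, where 640 of 12154 genes were higher and 365 lower. The list had 0 calls when only the starved libraries were fitted, without replicate 1 or 2 of shRenilla Starv, without replicate 2 of shBruce Starv, and with the replicate block and trends removed together, and 4 higher and 10 lower without replicate 3 of shBruce Starv, where 22.2% and 24.5% of all genes were.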
